A study of Mus musculus with 6 samples.

Results

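The mitochondrially encoded genes are those transcribed from the circular DNA inside mitochondria. They were taken as all rows of the deposited count table whose chromosome is given as MT, which gave 37 of 54532 genes. Of these, 13 encode proteins, 2 encode ribosomal RNAs (rRNA) and 22 encode transfer RNAs (tRNA). The filter on low counts kept 23 of the 37 for testing, namely 12 protein-coding genes, both rRNA genes and 9 tRNA genes. RNA was selected with poly-T beads from distal colon of mice and sequenced in 6 libraries. In 3 of them the genotype label was WT (WT 1 to WT 3) and in 3 it was Itgbl1 -/- (KO 1 to KO 3). Mice of both labels received dextran sulfate sodium (DSS), a salt that injures the colon epithelium, at 3% in drinking water for 7 days, and no group without DSS is among these samples. The sources used here do not give strain, sex, age, how the allele was made or whether libraries are separate animals. The p-values therefore measure only the spread among these libraries, which may be technical.

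Both strands of mitochondrial DNA are transcribed as long precursors, from which the tRNAs are cut out to release the rRNAs and mRNAs. The 13 proteins are all core parts of respiratory complexes I, III and IV and of the ATP synthase (complex V), and each is assembled with subunits encoded in the nucleus. Because most of the mRNAs carry short poly-A tails, those mRNAs are captured by poly-T beads, as were used here per the labels' protocols. Epithelial cells of the colon are rich in mitochondria and are lost in DSS colitis.

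Total counts ran from 13326970 reads in KO 3 to 18321389 reads in WT 1. Itgbl1 itself had 19, 6 and 5 reads in WT 1 to 3 and 12, 4 and 10 reads in KO 1 to 3, so that the targeted gene was counted in every library labelled as its knockout and the labels cannot be checked with it. KO 3, and for epithelial markers also KO 1, stood apart from the other libraries. The 12 marker genes of absorptive colonocytes summed to between 1.13% and 1.28% of counts in the WT libraries and to 0.110%, 0.625% and 0.00951% in KO 1 to 3, with all 12 log2 ratios negative and Guca2b at 0 in KO 3. Goblet cell markers summed to 1.33% to 1.37% in WT libraries and to 0.0598%, 1.40% and 0.00283% in KO 1 to 3, with 8 of 8 ratios negative although KO 2 was at the WT level. Neutrophil markers summed to 0.0454% to 0.197% against 0.189% to 0.712% (8 of 9 ratios positive, Ngp at 0 in WT 2), and erythroid markers to 0.00482% to 0.0148% against 0.0196% to 0.256% (5 of 5 tested positive). Fibroblast markers summed to 0.130% to 0.239% against 0.372% to 0.793% (7 of 7 positive) and smooth muscle markers to 0.371% to 0.485% against 0.191% to 0.616% (2 of 9 positive). Genes of RNA quality and tissue handling summed to 0.151% to 0.324% against 0.191% to 0.272% (4 of 9 positive). The part of these cell types, of RNA quality and of depth in the results on mitochondrial genes was not tested, and in bulk tissue fewer cells of a type and less RNA per cell cannot be told apart.

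Mitochondrial genes took 4.14%, 3.87% and 3.53% of all counted reads in WT 1 to 3, and 3.94%, 4.88% and 12.8% in KO 1 to 3. KO 1 lay among the WT libraries, KO 2 slightly above them and KO 3 far above all of the others. The means were 3.85% ± 0.304 under the WT label and 7.21% ± 4.88 under the KO label (SD, n = 3 each), a difference of 3.37 percentage points that was smaller than the spread of the KO libraries (two-sided exact permutation test, p = 0.2, where 3 against 3 cannot go below 0.1). Without KO 3 the difference was 0.565 percentage points. Counting only the mRNAs, the shares of all reads were 3.69%, 3.70% and 3.33% against 3.80%, 4.58% and 12.4%, so that the lowest KO library lay just above the highest WT library (exact permutation p = 0.1, the smallest possible).

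**Figure D1:**
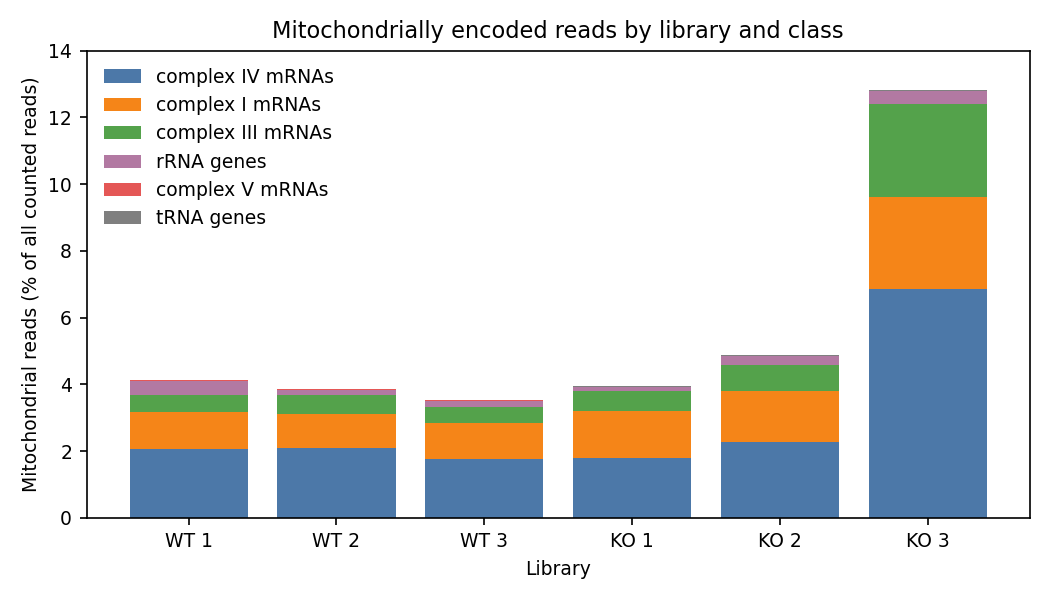
Mitochondrial reads as a percent of all counted reads (vertical axis) in each of the 6 libraries, stacked by class of RNA. KO 3 reaches 12.8%, while the other 5 libraries sit between 3.53% and 4.88%, and mRNA makes up most of every bar.

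A single gene supplied about as many reads as all of the rest. mt-Co1 (MT:5328-6872), the catalytic subunit of cytochrome c oxidase (complex IV), held 49.3%, 52.8% and 49.8% of mitochondrial reads in WT 1 to 3 and 45.0%, 46.3% and 53.0% in KO 1 to 3. mt-Cytb (MT:14145-15288), the only complex III subunit encoded there, came next in each library. Per length, mt-Co1 had a mean level of 13338 CPM per kilobase in the WT libraries (CPM, counts scaled to a common library size), followed by mt-Cytb at 4873 and mt-Nd1, a membrane subunit of complex I, at 3927. The other long complex I mRNAs formed a lower group, with mt-Nd4 at 1793, mt-Nd2 at 1606, mt-Nd6 at 1435 and mt-Nd5 at 1416 CPM per kilobase. The small and large subunit rRNAs, mt-Rnr1 and mt-Rnr2, were at 1195 and 1035 CPM per kilobase in these poly-A libraries. The last 6 mRNAs were far lower, from mt-Co2 at 267 through mt-Atp6 at 159, mt-Co3 at 111, mt-Nd3 at 46.9 and mt-Nd4l at 38.4 to mt-Atp8 at 2.07 CPM per kilobase.

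**Figure D2:**
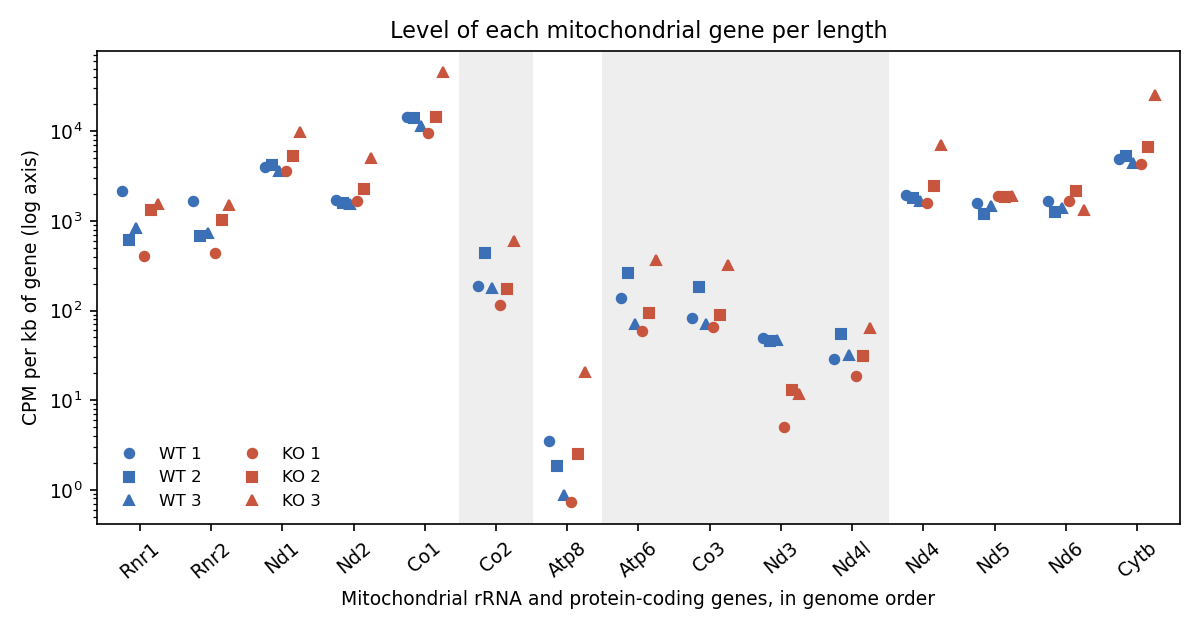
Level of each mitochondrial mRNA and rRNA in CPM per kilobase (log axis), with a point for every library coloured by label and the 5 genes almost wholly identical to a nuclear transcript shaded grey. mt-Co1 is highest at a WT mean of 13338, and mt-Co2, mt-Atp6, mt-Co3, mt-Nd3, mt-Nd4l and mt-Atp8 lie below the other genes.

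These low genes lie side by side, and the nuclear genome holds a near-identical copy of the same stretch. Transcripts of 7 nuclear pseudogenes between positions 24611535 and 24616197 of chromosome 1 (GRCm38, GENCODE M21) matched mitochondrial positions 6390 to 11042, spans of 4663 and 4653 bases. This stretch holds 11 of the 37 genes whole, 5 of them tRNA genes, and parts of mt-Co1 and mt-Nd4. The share of a gene's length that lay in runs of at least 100 bases identical to a nuclear transcript was 99.9% for mt-Co3, 99.6% for mt-Atp6 and mt-Co2, 99.0% for mt-Nd4l and 98.3% for mt-Nd3. It was 63.6% for mt-Nd4, 48.1% for mt-Co1 and 12.4% for mt-Nd2. It was 0% for mt-Atp8, which lies whole in the stretch and had the lowest WT mean of the mRNAs, 2.07 CPM per kilobase. Only annotated nuclear transcripts were searched. Over all libraries, the 5 genes above 98% spanned 4.97 to 591 CPM per kilobase, and the 9 other mRNA and rRNA genes apart from mt-Atp8 spanned 403 to 45512. The sources used here do not say how reads that match several places were counted, so the levels of the 5 genes are uncertain. A low value for them cannot be told apart from reads set aside or given to the copy. The same limit holds for reads over the identical parts of mt-Nd4, mt-Co1 and mt-Nd2, and so for the mitochondrial share. As unannotated nuclear sequence was not searched, the 0% of mt-Atp8 does not show that it has no copy.

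Reads were also counted on the copies. For mt-Co2 and its copy Gm28661, between 52.2% and 65.1% of the pair's reads were on the mitochondrial gene, and for mt-Co3 and Gm28437 between 52.8% and 66.8%. The share was 33.6% to 63.8% for mt-Atp6 with Gm10925 and 42.5% to 72.6% for mt-Nd4l with Gm10222. In these 4 pairs the ranges of the labels overlapped. Where the copy covers only part of the gene, 99.0% to 99.6% of reads were on mt-Nd4 (copy Gm28439) and 99.6% to 99.8% on mt-Co1 (copy Gm29216). A second, less similar copy of mt-Co1, Gm13340 on chromosome 2 (97.6% identical), had 201, 310 and 226 reads in WT 1 to 3 and 121, 137 and 309 in KO 1 to 3. Leaving out every gene with such a run, and those with a mean under 100 reads, the mitochondrial share of all reads was 1.66%, 1.38% and 1.37% in WT 1 to 3 and 1.67%, 2.02% and 4.49% in KO 1 to 3. KO 3 was again the highest, by more than the spread of the other libraries, and KO 1 was barely above WT 1.

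In the seventh pair the labels did not overlap. mt-Nd3 (MT:9459-9806) encodes a small subunit of complex I, and its copy Gm28438 lies at chr1:24612775-24613119 on the minus strand. The first 60 bases of each, from GENCODE M21 transcripts, are shown because the pair's only difference in 345 aligned bases lies in them. The differing base is in capitals.
mt-Nd3: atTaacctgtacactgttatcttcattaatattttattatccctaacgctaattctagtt
Gm28438: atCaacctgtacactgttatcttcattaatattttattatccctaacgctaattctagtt

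Counted from 1 at the 5′ end of the gene, the mitochondrial base first, the difference is T3C, at mitochondrial position 9461, and 342 identical bases follow it. mt-Nd3 had 286, 249 and 275 reads in WT 1 to 3 and 35, 79 and 53 reads in KO 1 to 3. Gm28438 had 59, 38 and 34 reads in WT 1 to 3 and 319, 386 and 191 reads in KO 1 to 3. The 2 genes thus changed places between the labels, and neither overlapped. mt-Nd3 held 82.9% (95% Wilson interval 78.6 to 86.5), 86.8% (82.3 to 90.2) and 89.0% (85.0 to 92.0) of the pair's reads in WT 1 to 3. It held 9.89% (7.20 to 13.4), 17.0% (13.8 to 20.7) and 21.7% (17.0 to 27.3) in KO 1 to 3, where the intervals cover counting error only. The means were 86.2% ± 3.08 and 16.2% ± 5.96 (SD, n = 3 each), a difference of -70.0 percentage points (exact permutation p = 0.1, the smallest possible), and leaving out any single library left it between -72.8 and -66.9. The pair together had 345, 287 and 309 reads in WT 1 to 3 and 354, 465 and 244 in KO 1 to 3. In CPM the sum was 20.5, 18.2 and 18.2 against 17.5, 26.6 and 19.0, and the labels overlapped. In the fit over all genes with edgeR's quasi-likelihood test, the log2 ratio of KO over WT was -2.24 ± 0.43 for mt-Nd3 (SE, adjusted p = 0.094), 2.73 ± 0.37 for Gm28438 (adjusted p = 0.094) and 0.15 for the pair counted as 1 gene (adjusted p = 0.760). Over 16 fits the log2 ratio of mt-Nd3 ran from -2.53 to -1.91 and passed an adjusted p of 0.05 in 3 of them (adjusted p from 0.000285 to 0.286), 1 of which leaves out KO 2. The counts do not show which base the reads carried at position 9461. The comparison of this pair was chosen after its values were seen.

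**Figure D3:**
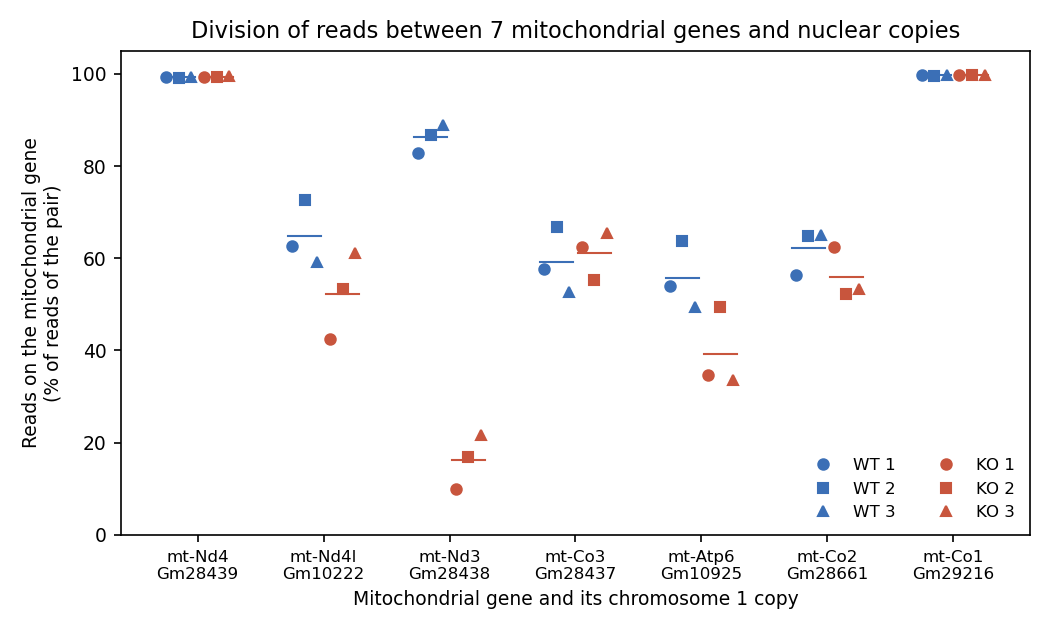
Percent of the reads of each mitochondrial gene and its nuclear copy that were counted on the mitochondrial gene, by library and label, with a line at each label's mean. For mt-Nd3 the WT libraries lie between 82.9% and 89.0% and the KO libraries between 9.89% and 21.7%, while in the other pairs the labels overlap.

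The tRNA genes beside mt-Nd3 had lower counts under the KO label, at very low depth. mt-Tg, the glycine tRNA just upstream, had 7, 25 and 2 reads in WT 1 to 3 and none in the KO libraries, which against a floor of 3 counts over the group is at least 11.6-fold lower. WT 2 held most of these reads, and without it the limit was 4.49-fold. mt-Tr, the arginine tRNA just downstream, had 8, 9 and 7 reads in WT 1 to 3 and 2, 1 and 0 in KO 1 to 3. Both lie in the stretch with the nuclear copy, and neither passed the filter on low counts. In CPM the labels did not overlap for either gene, as for 32.3% of all genes tested. Counts on tRNA genes are reads that reach into them, so these counts may not be separate from those of mt-Nd3.

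Over all genes, edgeR's quasi-likelihood test with Benjamini-Hochberg adjustment called 0 of 16861 genes (0% at an adjusted p of 0.05), and so 0 of the 23 mitochondrial genes tested. At an unadjusted p of 0.05, 11.8% of all genes were higher and 12.3% lower under the KO label, 1992 and 2067 genes. With upper-quartile scaling these counts were 2673 and 1691, and with total counts alone 2648 and 1544. Of the 23 mitochondrial genes, 2 were higher at that level, the glutamate tRNA mt-Te and the leucine tRNA mt-Tl1, and 1 was lower, mt-Nd3. These shares lie below those of all genes. DESeq2 called 10.5% of its genes and 3 of 26 mitochondrial genes, mt-Nd3, mt-Te and mt-Tg. edgeR without the filter on low counts called 0.622% of genes and 1 of 35 mitochondrial genes, mt-Nd3. The log2 ratio was positive for 15 of the 23 and negative for 8, with a median of 0.18 beside 0.061 over all genes. With upper-quartile scaling or total counts alone 19 of the 23 were positive, as those scalings raised the median of all genes to 0.21 and 0.22.

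Among the mRNAs the ratios differed widely and none passed the adjusted threshold in that fit. mt-Cytb had 5677, 6038 and 5009 CPM in WT 1 to 3 and 4975, 7541 and 29048 CPM in KO 1 to 3, a log2 ratio of 1.31 ± 0.78 (SE, edgeR adjusted p = 0.340). KO 1 was the lowest of the 6 libraries and KO 3 the highest, and without KO 3 the log2 ratio was 0.15. mt-Co1 had 22220, 21714 and 17887 CPM in WT 1 to 3 and 14751, 22541 and 70315 CPM in KO 1 to 3, a log2 ratio of 0.80 that was -0.16 without KO 3. The log2 ratios of the core complex I subunits of the membrane arm were 1.05 for mt-Nd4, 0.90 for mt-Nd2, 0.67 for mt-Nd1 and 0.41 for mt-Nd5, and that of mt-Nd6 was 0.26. Without KO 3 they were 0.17 for mt-Nd4, 0.28 for mt-Nd2 and 0.18 for mt-Nd1. That of mt-Nd5 was 0.27 without WT 2 and that of mt-Nd6 0.024 without KO 2. mt-Co2, which carries the copper site that receives electrons from cytochrome c, had 0.14, mt-Co3 0.51 and mt-Atp6, the proton channel subunit of ATP synthase, 0.12. The rRNAs mt-Rnr2 and mt-Rnr1 had log2 ratios of -0.06 and -0.15. The log2 ratios of both rRNAs, mt-Co2, mt-Co3 (-0.53 without KO 3), mt-Atp6 and mt-Nd4l changed sign with another scaling or model or without 1 library.

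In CPM, the values of the labels did not overlap for 32.3% of all genes and for 3 of the 23 mitochondrial genes. mt-Nd5, a proton-pumping subunit of complex I, had 2881, 2165 and 2700 CPM in WT 1 to 3 and 3463, 3354 and 3486 CPM in KO 1 to 3. All 3 KO libraries were higher than every WT library and close to each other, KO 3 included. mt-Te had 27, 25 and 26 reads in WT 1 to 3 and 94, 61 and 74 reads in KO 1 to 3, a log2 ratio of 1.55 ± 0.41 (SE, edgeR adjusted p = 0.108). mt-Nd3 was the gene of the 3 that was lower. As a percent of all counts without further scaling, 7 of the 23 did not overlap, beside 32.9% of all genes. mt-Nd1, mt-Nd2, mt-Nd4, mt-Nd5, mt-Cytb and mt-Te were the 6 that were higher under the KO label, and mt-Nd3 was again the 1 that was lower.

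The excess in KO 3 was uneven across the genes. Of the 17 mitochondrial genes with a mean of at least 100 reads, KO 3 was above the other 5 libraries in 11 and within their range in 6. The matching share over all genes was not counted, so these counts cannot be called particular to mitochondrial genes. Relative to the median of the other 5 libraries, CPM in KO 3 was 5.12-fold for mt-Cytb, 3.90-fold for mt-Nd4, 3.24-fold for mt-Co1, 3.05-fold for mt-Nd2 and 2.44-fold for mt-Nd1. It was 2.04-fold for mt-Rnr2 and 1.83-fold for mt-Rnr1, whose values lay within the range of the others. mt-Nd5 was at 1.21-fold and mt-Nd6 at 0.809-fold, so that these neighbouring genes did not share the excess of mt-Cytb, which follows them on the chromosome.

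**Figure D4:**
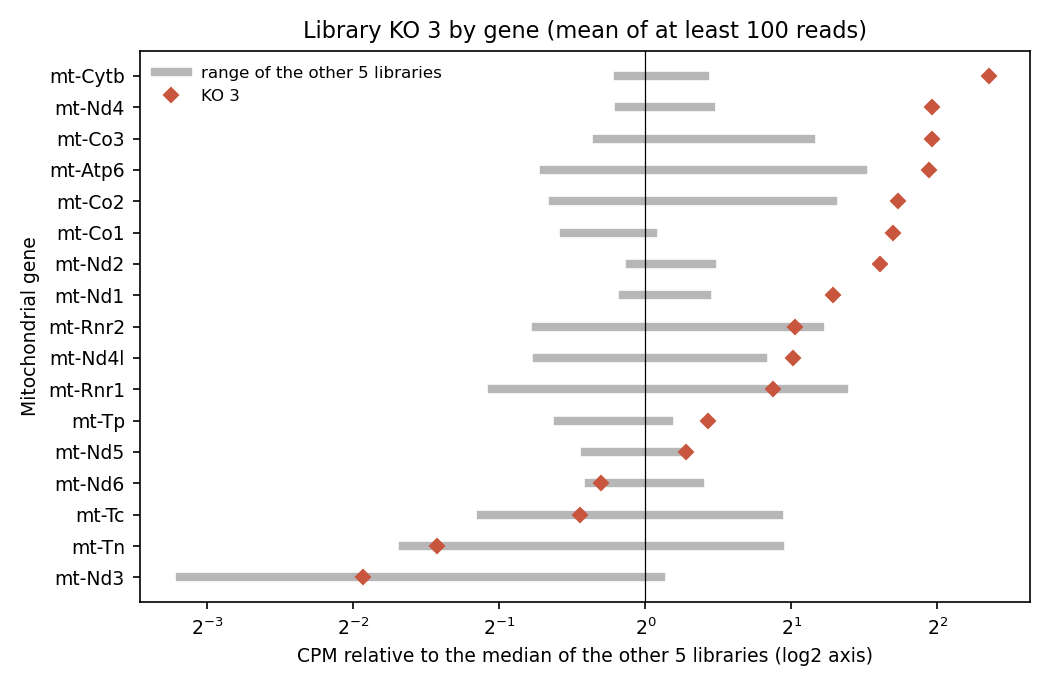
CPM in KO 3 over the median of the other 5 libraries (log axis) for the mitochondrial genes with a mean of at least 100 reads, with grey bars for the range of the other libraries. mt-Cytb is highest at 5.12-fold, while mt-Nd5 is at 1.21-fold and mt-Nd6 at 0.809-fold.

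mt-Nd5 and mt-Nd6 lie on opposite strands, and the last 14 bases of mt-Nd5 (MT:13552-13565) are also part of mt-Nd6. The shared bases, on the strand of mt-Nd5, are given with the stop codon of mt-Nd5 at their end.
mt-Nd5 and mt-Nd6: ttaatctcgagtaa

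The sources used here do not give the strand setting of the counting, so antisense RNA reads across either gene could be counted on both or on the wrong one. mt-Nd6 is the only mRNA of the light strand. Its counts over those of mt-Nd5 were 0.297, 0.302 and 0.268 in WT 1 to 3 and 0.252, 0.330 and 0.199 in KO 1 to 3. mt-Cytb over mt-Nd5 was 1.97, 2.79 and 1.85 in WT 1 to 3 and 1.44, 2.25 and 8.33 in KO 1 to 3. mt-Cytb over mt-Nd6 was 6.62, 9.22 and 6.93 in WT 1 to 3 and 5.71, 6.80 and 41.9 in KO 1 to 3. The ratio of mt-Nd6 to mt-Nd5 thus varied less than 2-fold over the libraries, while both ratios with mt-Cytb were severalfold higher in KO 3 than elsewhere.

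Shares within the mitochondrial total do not depend on how libraries are scaled. Complex IV mRNAs made up 49.8%, 53.9% and 50.3% of mitochondrial reads in WT 1 to 3 and 45.4%, 46.6% and 53.5% in KO 1 to 3. Complex I mRNAs made up 26.6%, 26.7% and 29.9% in WT 1 to 3 and 35.8%, 31.5% and 21.5% in KO 1 to 3. KO 1 and KO 2 lay above all WT libraries and KO 3 below them, and the difference of the means changed sign with KO 1 left out. The share of mt-Cytb was 12.6%, 14.7% and 13.9% in WT 1 to 3 and 15.2%, 15.5% and 21.9% in KO 1 to 3, a difference of 3.77 percentage points that was 1.58 without KO 3. The share of mt-Nd4 was 5.88%, 6.06% and 6.31% in WT 1 to 3 and 6.71%, 7.00% and 7.33% in KO 1 to 3. For both genes every KO library was above every WT library (exact permutation p = 0.1, the smallest possible). Of the 23 genes tested, 3 were higher without overlap (mt-Cytb, mt-Nd4 and mt-Te) and mt-Nd3 was lower, beside 19.8% of all genes when each was divided by the mitochondrial total. The share of mt-Nd5 ranged widely among the KO libraries, at 10.6%, 6.88% and 2.63% in KO 1 to 3 against 6.40%, 5.26% and 7.51% in WT 1 to 3.

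The rRNAs, which lack the poly-A tails of mRNAs or carry very short ones, took 10.4%, 4.06% and 5.46% of mitochondrial reads in WT 1 to 3 and 3.28%, 5.92% and 2.88% in KO 1 to 3. WT 1 held the highest share and the labels overlapped (exact permutation p = 0.3). mt-Rnr1 over mt-Rnr2 was 0.768, 0.536 and 0.685 in WT 1 to 3 and 0.556, 0.763 and 0.616 in KO 1 to 3, with no separation of the labels.

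ATP synthase mRNAs took little of the total, at 0.213%, 0.440% and 0.134% in WT 1 to 3 and 0.122%, 0.133% and 0.190% in KO 1 to 3. mt-Atp8 and mt-Atp6 are translated from 1 shared mRNA, and 43 bases (MT:7927-7969) belong to both genes. The sequence is shown because reads over it match both genes, with the start codon of mt-Atp6 and the stop codon of mt-Atp8 in capitals.
mt-Atp8 and mt-Atp6: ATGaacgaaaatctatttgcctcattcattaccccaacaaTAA

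mt-Atp8 had 12, 6 and 3 reads in WT 1 to 3 and 3, 9 and 54 reads in KO 1 to 3, and was the only protein-coding gene that did not pass the filter. mt-Atp6 had 95.03, 180.7 and 48.1 CPM in WT 1 to 3 and 39.7, 64.3 and 247.4 CPM in KO 1 to 3. Its neighbours mt-Co2 and mt-Co3 showed the same order of libraries within the WT label, with WT 2 highest, and were also highest in KO 3. mt-Co2 had 127.3, 297.9 and 122.2 CPM in WT 1 to 3 and 78.8, 119.1 and 404.5 CPM in KO 1 to 3.

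The tRNA genes held between 0.118% and 0.335% of mitochondrial reads. The library insert size was far longer than a tRNA, so these counts are reads that reach into a tRNA gene rather than a measure of the mature tRNAs. Of the 22 genes, 2 had no read, 8 had fewer than 10 reads over all libraries and 3 had a mean of at least 100 reads, mt-Tp, mt-Tc and mt-Tn, which decode proline, cysteine and asparagine. All 3 are on the light strand, as are 8 of the 22, and the light-strand genes held 88.2% to 94.3% of tRNA reads. Because the strand setting of the counting is not given, reads on these genes need not come from light-strand RNA. mt-Tp (MT:15356-15422, minus strand), which is separated from mt-Cytb by the threonine tRNA gene mt-Tt, held most of the tRNA reads. Its sequence is given 5′ to 3′ as the tRNA reads, without capitals.
mt-Tp: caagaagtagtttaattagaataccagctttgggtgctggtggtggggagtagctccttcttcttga

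mt-Tp had 97.8, 87.3 and 70.6 CPM in WT 1 to 3 and 57.8, 96.9 and 117.8 CPM in KO 1 to 3, with no separation of the labels. mt-Tl1, which lies between mt-Rnr2 and mt-Nd1, had 52, 27 and 29 reads in WT 1 to 3 and 104, 48 and 195 reads in KO 1 to 3, a log2 ratio of 1.81 ± 0.69 (SE, edgeR adjusted p = 0.173) that was 0.83 without KO 3.

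The nuclear partners of these proteins had mostly negative log2 ratios. Of 71 nuclear-encoded subunits of complexes I, III, IV and V that were tested, 67 had a negative and 4 a positive log2 ratio (median -0.69). None was called after adjustment, and 21 were lower and 0 higher at an unadjusted p of 0.05, the level at which 12.3% of all genes were lower and 11.8% higher. For complex I 33 of 36 were negative, for complex III 9 of 9, for complex IV 10 of 11 and for complex V 15 of 15. Cox5a, a subunit of complex IV, had 165.8, 283.3 and 194.6 CPM in WT 1 to 3 and 48.9, 103.2 and 69.3 CPM in KO 1 to 3, a log2 ratio of -1.54 ± 0.38 (SE, edgeR adjusted p = 0.101). Cyc1, the cytochrome c1 subunit of complex III, had 139.7, 332.4 and 221.5 CPM in WT 1 to 3 and 74.8, 106.4 and 81.1 CPM in KO 1 to 3. Both were lower in every KO library than in any WT library. The log2 ratio was -1.40 for Cyc1, -1.28 for Atp5b, the catalytic subunit of ATP synthase, and -1.07 for Ndufb9 of complex I. Complex II has no mitochondrially encoded subunit, and its 4 nuclear genes Sdha to Sdhd were all negative, with a median of -0.96. Without KO 3, 10 of the 15 positive mitochondrial genes stayed positive and 4 of the 8 negative ones became positive, while all 67 negative nuclear genes stayed negative. The nuclear set moved more without other libraries. Without KO 1, 60 of the 71 nuclear genes were negative and 11 positive (median -0.45), and without WT 2, 63 were negative and 8 positive (median -0.48). Without KO 2, 69 were negative and 2 positive (median -1.07). The difference between the mitochondrial and nuclear sets was not tested.

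Summed over the 4 complexes, reads of mitochondrial genes over reads of nuclear genes were 3.44, 2.14 and 2.85 in WT 1 to 3 and 5.98, 4.19 and 15.9 in KO 1 to 3. All 3 KO libraries were above all WT libraries. In KO 1 the mitochondrial mRNAs that enter this ratio took 3.80% of all reads, just above the highest WT library at 3.70%. The nuclear subunits took 1.07%, 1.73% and 1.17% of all reads in WT 1 to 3 and 0.635%, 1.09% and 0.781% in KO 1 to 3. By complex, the ratio was 4.23, 2.66 and 4.03 against 7.79, 5.10 and 11.5 for complex I, and 3.83, 2.35 and 3.17 against 7.25, 5.24 and 27.3 for complex III. It was 6.40, 4.63 and 6.04 against 13.6, 7.91 and 35.7 for complex IV. For these 3 complexes the labels did not overlap, and for complex V, whose mitochondrial mRNAs lie in the stretch with the nuclear copy, they did.

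**Figure D5:**
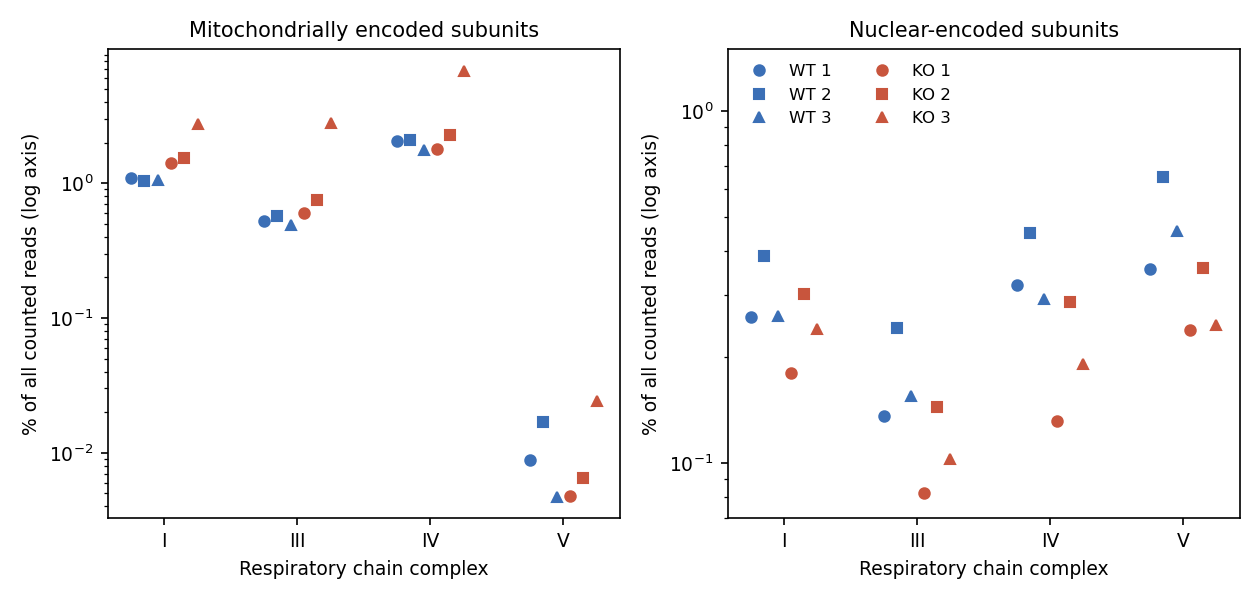
Reads of mitochondrially encoded subunits (left) and nuclear-encoded subunits (right) of each respiratory complex as a percent of all counted reads (log axes), with a point for each library coloured by label and shaped by replicate number. For complex IV the nuclear subunits are lower in every KO library than in any WT library, and for complexes I and III the mitochondrial ones are higher, most in KO 3.

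Nuclear genes that make, process and translate mitochondrial RNA had group medians nearer to that of all genes, and none was called after adjustment. Their counts at an unadjusted p of 0.05 stand beside 11.8% of all genes higher and 12.3% lower. Of 18 genes of mitochondrial transcription and DNA maintenance, 11 were positive and 7 negative (median 0.09), and 1 had an unadjusted p under 0.05, Polg2, the accessory subunit of the mitochondrial DNA polymerase, with a log2 ratio of -1.13. Of 24 genes of mitochondrial RNA processing and stability, 8 were positive and 16 negative (median -0.23), with 2 higher and 1 lower at that level. Rexo2, an exonuclease that degrades short RNA fragments, had 70.2, 47.2 and 49.8 CPM in WT 1 to 3 and 96.6, 139.8 and 98.5 CPM in KO 1 to 3, a log2 ratio of 1.00. Trnt1, which adds the CCA end to tRNAs, had 0.66, and Ptcd2, a pentatricopeptide protein linked to the processing of the mt-Cytb transcript, had -1.32. Of 12 tested translation factors 9 were negative, and the 3 at that level were all lower, Gfm2, Mtif3 and Tufm with log2 ratios of -0.84, -1.05 and -1.07. Of 77 mitoribosome proteins 29 were positive and 48 negative (median -0.10), with Mrps30 higher (0.74) and Mrps6 lower (-1.64) at that level.

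Of 10 regulators of mitochondrial biogenesis 4 were positive and 6 negative (median -0.31). In this list 4 had an unadjusted p under 0.05 and all 4 were lower under the KO label, beside 12.3% of all genes lower at that level. Ppargc1a, a coactivator that drives mitochondrial gene programmes, had 11.9, 55.3 and 23.5 CPM in WT 1 to 3 and 4.05, 2.97 and 2.33 CPM in KO 1 to 3, a log2 ratio of -3.27 ± 0.61 (SE, edgeR adjusted p = 0.094). Its partner receptors Esrrg and Esrra had log2 ratios of -3.20 and -1.90, and the related coactivator Ppargc1b had -2.12. No KO library reached the lowest WT library in any of these genes. Of 15 genes used as measures of mitochondrial mass, 5 were lower and 2 higher at that level, beside 12.3% and 11.8% of all genes. Cs, citrate synthase, had 610.5, 821.1 and 554.7 CPM in WT 1 to 3 and 155.2, 266.6 and 112.9 CPM in KO 1 to 3, a log2 ratio of -1.89. The ADP/ATP carriers had log2 ratios of opposite sign, -1.997 for Slc25a5 and 1.00 for Slc25a4. Of 13 genes of mitophagy and fission 1 had an unadjusted p under 0.05, Bnip3, a mitophagy receptor, with a log2 ratio of 0.76. The summed colonocyte markers given above were lower in the same libraries, and their part in these values was not tested.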

How the data were processed

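The authors deposited 1 table of whole-number gene counts with a column for each library. Before counting, adaptor, poly-N and low-quality reads were removed, per the labels' protocols. The submitters' processing notes list the builds GRCm38 and mm10 and the tools DESeq2, HISAT2 2.0.5, StringTie 1.3.3b and featureCounts 1.5.0-p3, without roles. The sources used here do not state the strand setting or how multiply mapping reads were treated. Values per kilobase use the deposited gene length. Columns without a sample numbered 0.

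The main test was edgeR 4.0.16 in R 4.3.3, with TMM scaling, a robust quasi-likelihood fit and Benjamini-Hochberg adjustment over the 16861 genes left by filterByExpr (minimum count 10, minimum total 15). DESeq2 1.42.0, limma 3.58.1, other scalings and filters and each library left out were alternatives. Single values were compared with exact permutation tests over libraries. Mitochondrial transcripts of GENCODE M21 were aligned to nuclear transcripts with blastn 2.17.0, keeping matches of at least 95% identity over 200 bases. All mitochondrial mRNAs and rRNAs are described, with tRNA genes of a mean of at least 100 reads, nuclear copies of such a mean and, from each nuclear list, genes among the 4 with the smallest p. mt-Te, mt-Tl1, mt-Tg and mt-Tr were named after their values were seen. The members and lists were chosen with earlier results of these data known. All libraries carry the same date in the labels.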

Additional observations from a re-analysis of the deposited data

How the results depend on the processing

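With 3 libraries per label, few calls are firm. The count of genes called over all genes, 0 with the main settings, was 192 without the filter on low counts, 3 with the replicate number as a block and 2029 with DESeq2, and with each library left out it ran from 0 to 1813, the highest without KO 2. The count of mitochondrial genes called was 1 of 35 without the filter and 3 of 26 with DESeq2, and ran from 0 to 1 with a library left out. The nuclear lists had 243 distinct members tested in the main fit. Of their members 2 were called without the filter and 14 with DESeq2, beside 0.622% and 10.5% of all genes. With a library left out the count ran from 0 to 16, the highest without KO 2, where 1813 of all 17449 genes were called. Same-numbered libraries did not deviate together (correlations of -0.20, 0.087 and -0.075), so the numbers were not used to pair them. For the mitochondrial share, the mean of same-numbered differences equals the difference of the label means, 3.37 percentage points, by arithmetic and so checks nothing.

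Of 381 log2 ratios of mitochondrial genes and Gm28438 under alternatives, 333 kept their direction and side of the threshold, 7 came to pass it and 41 changed sign, none of them past it. With upper-quartile scaling the log2 ratio was 0.092 for mt-Rnr2, 0.0068 for mt-Rnr1, 0.0076 for mt-Tc and 0.13 for mt-Nd4l. With total counts alone it was 0.050 for mt-Rnr2, 0.045 for mt-Tc, 0.079 for mt-Nd4l and 0.037 for mt-Tn. With the replicate block it was -0.15 for mt-Co2, -0.28 for mt-Atp6 and 0.051 for mt-Tc, and with limma-voom -0.057 for mt-Co2, -0.11 for mt-Atp6, 0.084 for mt-Tc and 0.085 for mt-Tn. With nuclear copies merged, an alternative chosen after seeing the data, it was 0.24 for mt-Nd4l and 0.15 for mt-Nd3. With each library left out the ranges were -0.16 to 1.17 for mt-Co1, -0.50 to 0.46 for mt-Rnr2, -0.48 to 0.56 for mt-Rnr1, -0.90 to 0.66 for mt-Co2, -1.06 to 0.69 for mt-Atp6, -0.53 to 1.03 for mt-Co3, -0.15 to 0.34 for mt-Tp, -0.52 to 0.53 for mt-Tc, -0.63 to 0.30 for mt-Nd4l, -0.63 to 0.74 for mt-Tn, -0.17 to 0.36 for mt-Tl2, -0.89 to 0.13 for mt-Ts2 and -0.86 to 0.68 for mt-Th.

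Of 170 differences in share within the mitochondrial total, 158 kept their direction and 12 changed it. With mRNAs only that of mt-Nd1 was -0.149 percentage points. With each library left out the ranges, in percentage points, were -0.0899 to 0.00298 for tRNA, -1.25 to 5.90 for complex I, -0.505 to 1.27 for mt-Nd1, -1.64 to 2.33 for mt-Nd5, -0.437 to 0.629 for mt-Nd6 and -0.0856 to 0.0154 for mt-Co3. The cause was not tested. Of 108 list medians 104 moved by less than the spread between libraries. Of the 4 that moved more, 3 were of the biogenesis regulators and 1 of the nuclear complex III subunits.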
